A study of Bos taurus and Ovis aries and Capra hircus with 9 samples.

Results

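The growth hormone receptor gene (GHR) and the insulin-like growth factor 1 gene (IGF1) were measured in the livers of cattle, sheep, and goats. They were taken by their cattle identifiers, ENSBTAG00000001335 for GHR and ENSBTAG00000011082 for IGF1, and are 2 of 27607 genes in the cattle count table. Both have a matched gene in the sheep and goat annotations, which makes them 2 of 11519 genes shared by the 3 species, and both passed the filter on low counts that 9832 shared genes passed. The names came with the identifiers, since the count tables hold identifiers only. The livers came from 3 Holstein cattle, 3 Texel sheep, and 3 goats of the Yunnan black breed, all healthy adults with 1 library per animal, collected after death and frozen. The cattle were older than the sheep and goats according to the methods, so species, breed, age, and collection cannot be told apart. The study compared these livers to ask how gene expression and regulatory elements changed during ruminant evolution. The 3 animals of a species are called A, B, and C, and a letter does not tie animals of different species.

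Growth hormone is released by the pituitary and reaches the liver in the blood. There it binds the receptor encoded by GHR, which has no kinase of its own and works through the kinase JAK2 and the transcription factor STAT5. One of the genes switched on is IGF1, and the liver is the main source of the IGF1 hormone that circulates, bound to carrier proteins, and acts on growth in bone and muscle. In cattle the liver form of the receptor is known to fall in early lactation, when circulating IGF1 is low while growth hormone is high. The lactation state and feeding of the animals were not given in the sources used here.

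Poly(A) RNA was sequenced with paired reads, and the authors deposited the number of reads assigned to each gene. The cattle libraries held 47996593 to 61105490 counts, the sheep libraries 28332266 to 40784417, and the goat libraries 16507706 to 35647106. Levels are given as CPM, which scales a library's counts on the shared genes to a common total, after correction by TMM, a factor that centres most genes between libraries. The TMM factor was 1.48 in goat C and between 0.853 and 1.08 in the other 8 libraries, so goat C stood apart, and the tests between species and the spread between goats that rest on it are also given without it. Goat C also had the fewest counts and the lowest share of them on shared genes, 64.7% against 68.2% to 74.7% elsewhere. Every count of GHR and IGF1 was at least 952, far above the 3 counts taken as the floor. In whole liver, fewer cells that express a gene and less of its RNA per cell cannot be told apart. Markers of hepatocytes and of other liver cells were not analysed here, because no table used here paired their names with the identifiers.

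In cattle, GHR lies on chromosome 20 from 31868624 to 32178311 of ARS-UCD1.2, on the minus strand, and its annotated exons merge into 13 pieces with a summed length of 3982 nt. The sheep gene is ENSOARG00020006196 on chromosome 16 of Oar_rambouillet_v1.0, from 33627122 to 33836051, with 12 exons and 2470 nt. The goat gene is ENSCHIG00000018928 on chromosome 20 of ARS1, from 31880734 to 32042994, with 13 exons and 2138 nt. Of the 11 internal exons of the cattle gene, 8 had a counterpart of equal length in order in sheep and 7 in goats, and exons of 130, 161, 179, 166, 91, and 70 nt followed each other in all 3 species. All 10 shared genes nearest to GHR in cattle also lay within 5 shared genes of it in sheep and in goats.

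In cattle, IGF1 lies on chromosome 5 from 66191602 to 66264083, on the minus strand, with 6 exons and 2000 nt. The sheep gene is ENSOARG00020009650 on chromosome 3, from 183953845 to 184028211, with 8 exons and 1395 nt. The goat gene is ENSCHIG00000018863 on chromosome 5, from 64865221 to 64942529, with 6 exons and 4884 nt. The match rested on 2 internal exons, of 160 and 182 nt, and on gene order. All 10 neighbouring shared genes were again within 5 shared genes of IGF1 in both species. For both GHR and IGF1, nearby pairs were a condition of the matching, so this order is not separate support for it. No exon of either gene overlapped an exon of another gene in any of the 3 annotations.

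The gene models differed in length at their ends and also in internal exons. Cattle had an internal exon of 560 nt in GHR and of 412 nt in IGF1. No internal exon of the sheep and goat models exceeded 182 nt in GHR or 206 nt in IGF1. The last exon of goat IGF1 was 4258 nt, or 87.2% of its model, against 882 nt in cattle and 699 nt in sheep, so the goat model was 2.44 times as long as that of cattle. The cattle model of GHR ended in an exon of 2124 nt, the sheep model in an exon of 1102 nt, and the goat model in an exon of 972 nt. A longer model can collect more reads from the same RNA, and reads beyond the annotated end are not counted. Each comparison is therefore given both for the counts and with the annotated exon length as an offset. The fit with the offset also recomputed the TMM factors, on counts divided by length. CPM per kb divides the CPM of the counts by length, with no new TMM factors. Values per kb and fold changes with the length offset thus differ in their scaling. The plot of exon lengths shows the first and last exons beside the internal ones.

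**Figure D1:**
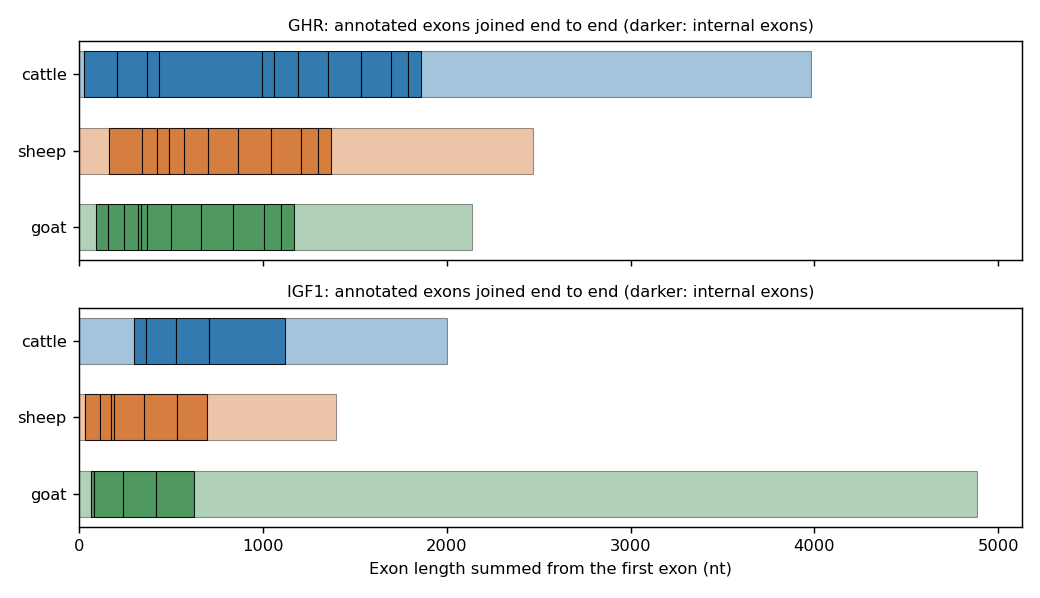
Annotated exons of GHR (top) and IGF1 (bottom) in cattle, sheep, and goats, joined end to end in transcript order. The horizontal axis is exon length in nt, to scale, with internal exons darker than the first and last ones. The goat IGF1 model ends in an exon of 4258 nt, against 882 nt in cattle and 699 nt in sheep.

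GHR was among the more abundant of the shared genes in all 9 livers, and its mean level did not differ between species beyond the spread between animals. The GHR level was 480.0, 376.8, and 346.0 CPM in cattle A, B, and C. It was 778.7, 327.9, and 673.3 CPM in the sheep and 1063, 344.0, and 77.7 CPM in the goats. The goats thus held both the highest and the lowest value of the 9, and the range of each species overlapped those of the others. The means were 401 ± 70.2 CPM in cattle, 593 ± 236 in sheep, and 495 ± 510 in goats (SD, n = 3 each).

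By edgeR's quasi-likelihood test with Benjamini-Hochberg adjustment over the 9832 genes, the log2 fold change of GHR between cattle and sheep was -0.57 ± 0.68 (SE), with an adjusted p of 0.510. The 95% interval of this difference ran from -2.06 to 0.93, so it does not show equal levels. By the same edgeR test the log2 fold change was -0.30 ± 0.68 for cattle against goats (interval -1.80 to 1.19, adjusted p 0.725), and for sheep against goats it was 0.26 ± 0.68 (interval -1.23 to 1.75, adjusted p 0.817). Of all shared genes tested, 49.1% were called for cattle against sheep, 53.6% for cattle against goats, and 25.5% for sheep against goats, and GHR was not among them. The direction between cattle and goats turned to 0.92 without goat A, and that between sheep and goats turned to -0.23 without goat C, neither of them past the threshold. Without goat C the value for cattle against goats was -0.80 (edgeR adjusted p 0.185).

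Per kb of exon, GHR was lowest in cattle apart from 1 goat. It reached 121, 94.6, and 86.9 CPM per kb in cattle A, B, and C, 315, 133, and 273 in the sheep, and 497, 161, and 36.4 in the goats. On this scale all 3 sheep lay above all 3 cattle, whereas the goats lay on both sides of the cattle. The nearest sheep and cattle were sheep B at 133 and cattle A at 121. Whether this gap holds with the TMM factors of the offset fit was not tested. A gap between all cattle and all sheep, in either direction, was seen for 66.4% of the shared genes. With the length offset, the log2 fold change of GHR was -0.82 for cattle against sheep (edgeR, adjusted p 0.337), -0.93 for cattle against goats (adjusted p 0.274), and -0.11 for sheep against goats (adjusted p 0.925). In this fit 48.5%, 51.4%, and 25.9% of genes were called in the same 3 comparisons. Without goat C, the cattle and goat difference in GHR was -1.43 with an adjusted p of 0.0250 by edgeR, and without goat A it was 0.30 with an adjusted p of 0.674. The sheep and goat difference in GHR was -0.59 without goat C, with an edgeR adjusted p of 0.377.

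IGF1 was lower in cattle than in sheep in counts, per kb, and with the length offset. Its difference between cattle and goats depended on the gene models. The IGF1 level was 37.98, 54.7, and 37.1 CPM in cattle A, B, and C. It was 100.2, 121, and 139 CPM in the sheep and 310, 153, and 60.2 CPM in the goats. All 3 cattle lay below all 6 sheep and goats in CPM, while the sheep lay within the range of the goats. The means were 43.3 ± 9.89 CPM in cattle, 120 ± 19.5 in sheep, and 174 ± 126 in goats (SD, n = 3 each). Libraries of the 2 species did not overlap, in either direction, for 67.2% of the shared genes between cattle and sheep and for 62.6% between cattle and goats.

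**Figure D2:**
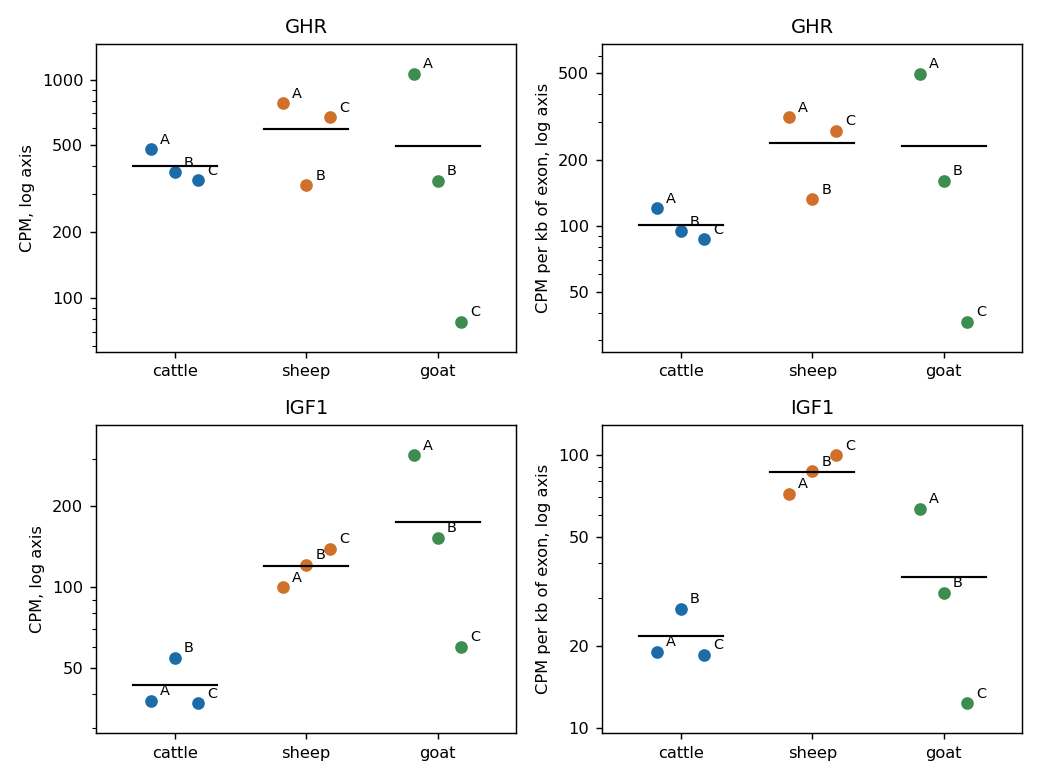
Levels of GHR (top) and IGF1 (bottom) in each liver, as CPM (left) and as CPM per kb of annotated exon (right), on log axes. Points are the animals A, B, and C of each species and black lines are the means of 3. GHR in goats spans 77.7 to 1063 CPM, and IGF1 in cattle lies below sheep on both scales but overlaps goats per kb.

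The level of IGF1 in cattle was 2.78-fold lower than in sheep, a log2 fold change of -1.47 ± 0.47 (SE), with a 95% interval of -2.49 to -0.45 and an adjusted p of 0.0211 by edgeR. With the length offset it was 2.96-fold lower, with a log2 fold change of -1.57 and an adjusted p of 0.0166 by edgeR. The means per kb, 21.6 in cattle and 86.1 in sheep, lie further apart than this, as they lack the recomputed TMM factors. The difference in counts was larger in size than that of IGF1 for 29.6% of the tested genes, and it belongs to a comparison in which 49.1% of genes were called. The call was lost when any of 4 animals was left out. The edgeR adjusted p rose to 0.0651 without cattle A, 0.0707 without cattle C, 0.0567 without sheep B, and 0.0595 without sheep C, while the log2 fold change stayed between -1.67 and -1.36. In the fit with the length offset it was 0.0539 without cattle A and 0.0595 without cattle C.

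Between cattle and goats, the IGF1 counts gave a level 4.03-fold lower in cattle, a log2 fold change of -2.01 ± 0.47 (SE), with a 95% interval of -3.05 to -0.97 and an adjusted p of 0.00431 by edgeR. It was -2.40 without goat C and -1.30 without goat A, with an adjusted p of at most 0.0201 whichever of the 9 libraries was left out. With the length offset the log2 fold change was -0.45, its interval ran from -1.45 to 0.55, and the adjusted p was 0.432 by edgeR. On that scale it was -0.85 with an adjusted p of 0.0489 without goat C, and 0.27 with an adjusted p of 0.573 without goat A. The counts and the length offset therefore did not give the same call for IGF1 in this comparison, and which model length fits the RNA in these livers was not tested.

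Per kb of exon, IGF1 reached 19.0, 27.3, and 18.6 CPM per kb in cattle A, B, and C, 71.9, 86.9, and 99.7 in the sheep, and 63.4, 31.2, and 12.3 in the goats. All 3 sheep lay above all 3 goats and all 3 cattle, and the cattle lay within the range of the goats. Whether this order holds with the TMM factors of the offset fit was not tested. A gap between all sheep and all goats, in either direction, was seen for 37.4% of the shared genes. Between sheep and goats the log2 fold change of IGF1 was -0.54 in counts, with an interval of -1.54 to 0.46 and an adjusted p of 0.428 by edgeR. It was 1.12 with the length offset, with an interval of 0.10 to 2.13 and an adjusted p of 0.0987. The direction thus turned with the gene models, and neither value passed the threshold. In counts the value without goat C was -0.91, with an edgeR adjusted p of 0.0677. With the length offset, leaving out 1 library gave no call in 8 of 9 fits, with 0.75 and an edgeR adjusted p of 0.123 without goat C. The call appeared without goat A, at 1.83 with an adjusted p of 0.00852 by edgeR.

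**Figure D3:**
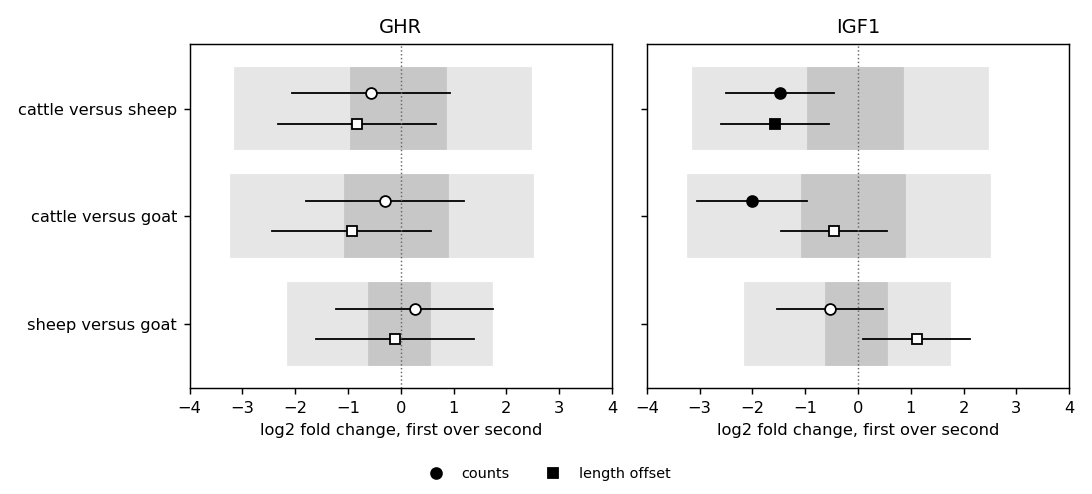
Fold changes of GHR (left) and IGF1 (right) between species, on a log2 scale, first species over second. Circles are fits of the counts and squares fits with the exon length offset, filled where the adjusted p is under 0.05, with 95% intervals as lines, and grey bands hold the middle 50% (dark) and 90% (light) of the count fold changes of all 9832 genes. IGF1 between cattle and sheep is filled on both scales, and IGF1 between cattle and goats on counts only.

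GHR was above IGF1 per kb of exon in all 9 livers. The ratio of GHR to IGF1 per kb was 6.35, 3.46, and 4.68 in cattle A, B, and C, 4.39, 1.53, and 2.73 in the sheep, and 7.84, 5.15, and 2.95 in the goats. The ranges of the 3 species overlapped. Without division by length, the ratio of GHR counts to IGF1 counts was 12.6, 6.89, and 9.31 in cattle A, B, and C, 7.77, 2.71, and 4.84 in the sheep, and 3.43, 2.25, and 1.29 in the goats. On this scale the cattle did not overlap the goats. Single genes did not overlap between cattle and goats in CPM, in either direction, for 62.6% of the shared genes, and ratios of other gene pairs were not taken. The ratio carries the lengths of both models, which differ between species as given above. Ranked per kb among the 9832 tested genes, with 1 the most abundant, GHR stood between 177 and 1655 and IGF1 between 680 and 3980, each with goat C at the lowest place.

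Both genes varied more between the goats than between the cattle or between the sheep, as did the median tested gene. The highest goat level of GHR was 13.7 times the lowest, against 1.39 times in cattle and 2.37 times in sheep. For IGF1 the same ratio was 5.14 in goats, 1.47 in cattle, and 1.39 in sheep. Without goat C the ratio of the other goats was 3.09 for GHR and 2.03 for IGF1. On the scale of log2(CPM + 1), the SD of GHR was 1.88 in goats, which only 0.153% of the tested genes exceeded. The SD of IGF1 in goats was 1.18, which 2.65% of genes exceeded. The median SD over all tested genes was 0.411 in goats, 0.299 in sheep, and 0.186 in cattle. A wider spread in goats was therefore not particular to GHR and IGF1. In sheep the SD was 0.667 for GHR, exceeded by 10.95% of genes, and 0.235 for IGF1, exceeded by 62.97%. Without goat C the SD was 1.15 for GHR, exceeded by 1.83% of genes, and 0.72 for IGF1, exceeded by 10.6%. By the plain ratio of highest to lowest goat, with no pseudocount, 1.52% of genes exceeded GHR and 6.21% exceeded IGF1.

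Goat A was the highest of the goats and goat C the lowest for both genes. This order was held by 22.8% of the tested genes, and the reverse order by 26.9%. The total counts of the goats stood in the same order, 35647106, 22921767, and 16507706, and goat C had the TMM factor of 1.48. In CPM of the library totals, without TMM, goat A was above goat C by 9.24 times for GHR and by 3.47 times for IGF1. The part of depth and of the TMM factor in this spread was not tested.

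Whether the genes moved together was asked within species, because IGF1 in cattle lay apart from the other species and a correlation pooled over the 9 libraries would mix in that gap. Each value was taken as log2(CPM + 1) minus the mean of its species. Over the 9 deviations Pearson's r was 0.867, with p = 0.199 by an exact two-sided permutation test that rearranged animals within species. The test had 216 arrangements and could reach 0.00463. Spearman's rho over the same deviations was 0.45 (exact permutation p = 0.384). Of the 9 animals, 5 deviated in the same direction for both genes.

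Those 5 were all 3 goats, cattle C, and sheep C. In goat A both genes were above the goat mean, GHR by 1.79 and IGF1 by 1.12 on the log2 scale, and in goat C both were below it, at -1.96 and -1.22. In sheep B, GHR was at -0.76 while IGF1 was at 0.02, and in sheep A, GHR was at 0.48 and IGF1 at -0.25. Without the goats, r over the other 6 animals was -0.199 (exact permutation p = 0.778). Without goat C alone r was 0.520 (exact permutation p = 0.625). Without goats A and C, the animals with the largest GHR deviations, r was -0.167 and Spearman's rho -0.179 over 7 animals. The correlation therefore rests on those goats, and a common movement of GHR and IGF1 was not detectable in cattle and sheep.

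**Figure D4:**
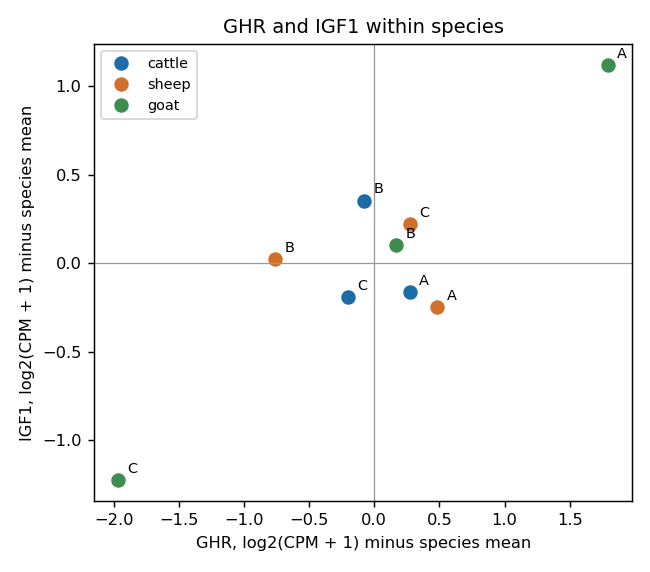
Deviation of each animal from its species mean for GHR (horizontal) and IGF1 (vertical), both in log2(CPM + 1). Goats A and C lie at opposite corners, at 1.79 and -1.96 for GHR, while the 3 cattle and 3 sheep lie between -0.76 and 0.48 on the GHR axis, in both directions on the IGF1 axis.

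Among all tested genes, neither gene had the other as its closest companion. Over the 9 libraries Pearson's r of log2(CPM + 1) between GHR and IGF1 was 0.479, a description that mixes species and animals. By this measure IGF1 ranked 1055 of 9831 genes for likeness to GHR, and GHR ranked 2446 for likeness to IGF1. By the deviations within species the ranks were 487 and 257. The gene most like GHR was ENSBTAG00000014517 on chromosome 6 (r = 0.960), which stood at 57.9, 27.2, and 8.41 CPM in goats A, B, and C and between 33.1 and 56.6 CPM in cattle and sheep. The gene most like IGF1 was ENSBTAG00000020900 on chromosome 29 (r = 0.963), at 24.6, 20.7, and 11.5 CPM in goats A, B, and C and at most 11.98 CPM in cattle. Both companions also stood highest in goat A and lowest among goats in goat C. They were picked by likeness over these same libraries, so this order is not a separate observation. The libraries share their depth and their scaling between genes, so these values carry no test.

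The 10 shared genes next to each member in cattle are given by their counts, beside the share of all genes called in the same comparison. Next to GHR, 6 genes were higher and 2 lower in cattle than in sheep by edgeR, so 8 of 10 were called where 49.1% of all genes were. Their log2 fold changes ran from -3.60 to 4.90 with a median of 0.90, and GHR itself was at -0.57. In cattle against goats 4 of them were higher and 2 lower (53.6% of all genes called), and in sheep against goats 1 was higher and 3 were lower (25.5% of all genes called). Next to IGF1, 1 gene was higher and 5 were lower in cattle than in sheep, again beside 49.1% of all genes. Their log2 fold changes ran from -2.67 to 1.51 with a median of -0.46, and IGF1 was at -1.47. In cattle against goats 1 was higher and 4 were lower, beside 53.6% of all genes, and none of the 10 was called between sheep and goats, where 25.5% of all genes were. No test was made of whether the neighbours differ from other genes.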

How the data were processed

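Per the labels and methods, the authors extracted total RNA with TRIzol, selected poly(A) RNA, trimmed the reads with Trimmomatic 0.39, mapped them with STAR 2.7.6 at no more than 3 mismatches, and counted them with featureCounts. The strand and read-pair options of counting are not given in the sources used here. The sheep and goat genome builds are those of the methods and go with the chromosome layout, whereas the submitters' notes list ARS-UCD1.2 for every sample. The authors deposited raw counts per gene, with exon positions and the annotated exon length. Genes of the 3 species were paired by ordered internal-exon lengths (at least 2 matched, 50% of the gene with fewer, 1.05 times the next best) and gene order. GHR was paired in this first pass. IGF1 was paired in a second pass that compared only unpaired genes in matching neighbourhoods. As a check, the cattle annotation was matched to a damaged copy of itself, with genes and exons dropped and exon lengths changed. Of 12105 genes 94.4% were recovered, with 3 wrong pairs of 11433. The copy kept the cattle gene order, so this check does not measure accuracy between species.

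Genes with CPM above 1 in at least 2 libraries were tested in edgeR 4.0.16 (R 4.3.3), with TMM, robust quasi-likelihood fits of all 9 libraries, and Benjamini-Hochberg adjustment at 0.05. DESeq2 1.42.0, other filters and scalings, an exon length offset, a replicate block, and leaving out each library were alternatives. Leave-one-out fits with the length offset, the correlation without the goats or without its farthest animals, and the spread between goats without goat C, were added after seeing the data. The members and lists were chosen with earlier results of these data known. Named genes are both members, the most alike gene of each by Pearson's r, and neighbours as counts. The listed genes of the growth hormone and IGF pathway and the liver cell markers could not be matched to identifiers (0 of 27607 in the RefSeq table) and were not analysed here. Chi-square values between animals of a species, 101 to 428 per degree of freedom, showed no repeated deposit. The floor of 3 counts, a CPM of 0.0491 to 0.182 of library totals, covers counting error only.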

Additional observations from a re-analysis of the deposited data

How the results depend on the processing

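In GHR the fold change between cattle and sheep stayed negative and uncalled under all 17 alternatives. The length offset turned GHR between sheep and goats to -0.11 and IGF1 between sheep and goats to 1.12. It moved IGF1 between cattle and goats to -0.45 (edgeR adjusted p 0.432). This fit changes both the divisor, the annotated length, and the TMM factors. Per kb, with the TMM factors of the counts, mean GHR was 240 in sheep and 231 in goats, so length alone did not turn the means. Leaving out 1 library gave -1.67 to -1.36 for IGF1 in cattle against sheep and -0.80 to 0.92 for GHR in cattle against goats. In sheep against goats it gave -0.23 to 1.49 for GHR and -0.91 to 0.17 for IGF1. In the length offset fits it gave -1.43 to 0.30 for GHR and -0.85 to 0.27 for IGF1 in cattle against goats, and -0.59 to 1.13 for GHR and 0.75 to 1.83 for IGF1 in sheep against goats. The correlation of GHR and IGF1 was 0.520 to 0.937 without 1 library and -0.199 without the goats, and as Spearman's rho 0.45. The turns on leaving out 1 library came with goat A or goat C, with sheep B also turning GHR between sheep and goats in the length offset fits, to 0.17.

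With the replicate block, GHR between cattle and goats turned to 0.094 (edgeR adjusted p 0.909), and the block changed no call of either gene. The letters share only a name: correlations of equal letters were -0.214 to 0.156 for cattle with sheep, -0.149 to 0.016 for cattle with goats, and 0.031 to 0.300 for sheep with goats. DESeq2 gave the same calls, with adjusted p of 0.00518 and 9.12e-05 for IGF1 in cattle against sheep and goats. The number of genes called was 3792 to 5361, 4142 to 5643, and 1694 to 3047 in the 3 comparisons, each within 1.5 times the 4827, 5268, and 2506 genes reported. IGF1 gave no value where 4 matched internal exons were required. The alternatives for pathway genes were not run. With 3 animals a species, the intervals of the uncalled fold changes of GHR and IGF1 leave room for differences of over 2-fold in at least 1 direction.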
